A study of Homo sapiens with 6 samples.

Results

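The genes described here encode the subunits of the human proteasome and the proteins that assemble, activate or inhibit it. They were the rows of a nascent-transcription count table whose symbol is PSM, a letter from A to G and a number, with or without IP at the end, which gave 47 of the 20333 gene intervals counted. The core held 17 genes, PSMA1 to PSMA7 and PSMB1 to PSMB10. The cap held 20 genes, PSMC1 to PSMC6 and PSMD1 to PSMD14. The other 10 were the activators PSME1 to PSME4, the inhibitor PSMF1, the assembly chaperones PSMG1 to PSMG4 and PSMC3IP. PSMC3IP shares the symbol pattern but encodes a cofactor of meiotic recombination, so it is described apart from the others, although it stays in every count and sum over the 47 and over the other 10. PSMA8 and PSMB11 were not analysed here.

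The proteasome is the barrel-shaped protease that breaks down proteins tagged with ubiquitin. Its core is a stack of rings in which PSMA subunits gate the entrance and PSMB subunits hold the catalytic sites, and its cap, built of PSMC ATPases and PSMD subunits, binds, unfolds and feeds in the substrate. Cells tend to adjust the subunit genes together, above all through the transcription factor NFE2L1, and inducible PSMB subunits replace the constitutive catalytic ones under interferon. A targeted protein degrader works through this machine, because it brings its target to a ubiquitin ligase, whereas a catalytic inhibitor only blocks the kinase's active site.

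The cells were T47D, an established line of oestrogen receptor-positive luminal breast cancer, kept in growth factor-complete medium. PRO-seq, which labels and sequences the RNA held by engaged RNA polymerase, was run after 5 h in 3 arms of 2 libraries each. One arm received the solvent DMSO alone, another 500 nM of GDC0068, a catalytic inhibitor of the kinase AKT, and another 100 nM of INY-05-040, an AKT degrader labelled Degrader. The doses differ because the study chose them to suppress signalling downstream of AKT to a like degree, so the drugs were compared at these doses only. The libraries of each arm came from 2 independent experiments. Libraries are labelled by replicate number, and those with the same number are taken here as a single experiment. All 3 arms are a single cell line at a single time.

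The libraries held 25371819 to 32192576 counts. All 47 genes passed the filter on low counts, with 100 to 5417 counts per library, so the counting error of a single value was 1.36% to 10%. All 8 luminal breast markers checked were counted in every library. The lowest was TFF1, at 119 to 186 counts. With Degrader 4 of the 8 had positive and 4 negative estimates, from -0.40 for TFF1 (edgeR adjusted p = 0.0862, and 0.0366 with the experiment as a replicate block) to 0.34 for the progesterone receptor gene PGR (adjusted p = 0.00801). With that block 2 markers were called higher and 2 lower, 50% of the 8 against 30.7% of all genes tested. None of the 6 basal or fibroblast and 4 blood markers listed was among the intervals counted, so the check covered luminal markers only. Levels are given as CPM, the count scaled to a common library total by TMM, so every change is relative to the bulk of genes.

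The 47 genes lay on 17 chromosomes, with 8 on chromosome 17 and 7 on chromosome 14. Their intervals had a median length of 12724 bp, from 2283 to 115917 bp, against 13766 bp over all intervals. No other interval overlapped 38 of the 47. Of the 47, 17 (36.2%) had another gene starting head to head within 1000 bp, against 25.5% of all intervals.

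RefSeq (GRCh38.p14) gave the region around the start site of 41 of the 47 genes. The 4 stretches shown are the DNA just before the start of PSMD1, the gene called lower with both drugs, of PSMG4 and PSME3, which fell with Degrader, and of PSMG1, the gene with the largest positive change with Degrader. They run 5′ to 3′ on the gene's strand. Capitals mark matches, on either strand, to any of 4 letter patterns: TGACNNNGC, the core of the antioxidant-type element that NFE2L1 can bind; TGTTTAC, a forkhead pattern of the kind bound by FOXO factors, which AKT phosphorylates; CCAAT, bound by NF-Y; and CCGGAAG, bound by ETS factors.
PSMD1 (chr2:231056617-231056866, plus strand): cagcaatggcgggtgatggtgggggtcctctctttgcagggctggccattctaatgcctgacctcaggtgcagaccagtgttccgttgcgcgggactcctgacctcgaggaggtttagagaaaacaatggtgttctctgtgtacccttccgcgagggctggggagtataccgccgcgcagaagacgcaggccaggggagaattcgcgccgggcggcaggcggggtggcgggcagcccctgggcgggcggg
PSMG4 (chr6:3258697-3258946, plus strand): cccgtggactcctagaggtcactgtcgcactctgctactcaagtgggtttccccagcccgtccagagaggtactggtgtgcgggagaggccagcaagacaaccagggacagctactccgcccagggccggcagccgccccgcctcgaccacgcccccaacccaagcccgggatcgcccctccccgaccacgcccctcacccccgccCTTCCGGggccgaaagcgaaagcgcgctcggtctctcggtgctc
PSME3 (chr17:42833147-42833396, plus strand): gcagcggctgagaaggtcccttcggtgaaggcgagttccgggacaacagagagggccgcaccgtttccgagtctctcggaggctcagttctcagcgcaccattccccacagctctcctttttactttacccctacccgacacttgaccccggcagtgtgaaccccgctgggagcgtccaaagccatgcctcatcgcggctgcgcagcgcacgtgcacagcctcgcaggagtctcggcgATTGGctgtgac
PSMG1 (chr21:39183477-39183701, minus strand): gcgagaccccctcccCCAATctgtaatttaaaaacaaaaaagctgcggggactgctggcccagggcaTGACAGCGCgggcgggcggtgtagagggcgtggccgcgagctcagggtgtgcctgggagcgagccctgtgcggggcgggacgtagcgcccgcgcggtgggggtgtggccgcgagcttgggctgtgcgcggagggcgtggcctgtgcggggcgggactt

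In the DMSO libraries the proteasome genes differed far more from each other than any of them did between arms. Per kb of interval, the core genes spanned 16.0-fold in mean CPM, from 0.750 for PSMB9 to 12.0 for PSMB10. The alpha ring, whose 7 subunits are built in equal number, spanned 6.02-fold, from 1.35 for PSMA1 to 8.14 for PSMA7. The constitutive beta ring spanned 4.97-fold, from 1.15 for PSMB2 to 5.73 for PSMB4. The cap ran from 0.680 for PSMD10 to 10.5 for PSMC5, and the highest level of all belonged to the assembly chaperone PSMG3, at 14.0. The median was 2.83 for the core, 2.91 for the cap and 3.36 for the others, against 1.69 over all genes tested. These levels are divided by interval lengths that run from 2283 bp for PSMB10 to 115917 bp for PSMD1. Which part of a gene was counted is not given, and how far length shapes these spans was not tested.

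Each constitutive catalytic subunit has an inducible counterpart that takes its place in the immunoproteasome, and both were transcribed in these cells. In DMSO the mean level of PSMB5 was 2.83 CPM per kb and that of PSMB8, its counterpart, was 3.91. PSMB6 stood at 4.47 CPM per kb and PSMB9 at 0.750. PSMB7 stood at 2.75 CPM per kb and PSMB10 at 12.0. Thus per kb the inducible gene was above its constitutive partner in 2 of the 3 pairs and below it in the other. Before division by length the inducible gene was the lower in all 3 pairs. Mean CPM was 15.8 for PSMB8 and 25.5 for PSMB5, 4.24 for PSMB9 and 10.4 for PSMB6, and 27.4 for PSMB10 and 170 for PSMB7. The order in those 2 pairs thus depends on the scaling, with intervals of 4050 and 9030 bp for PSMB8 and PSMB5, and 2283 and 61975 bp for PSMB10 and PSMB7. A second interval on the same strand overlapped PSMB10, so part of its count may belong to that interval.

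**Figure D1:**
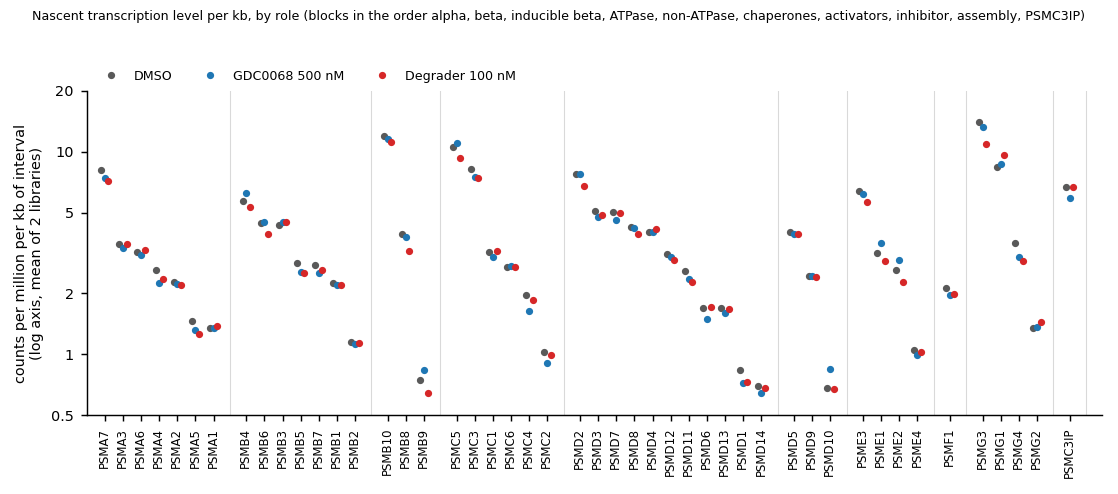
Mean level of each of the 47 genes per kb of interval in DMSO (grey), 500 nM GDC0068 (blue) and 100 nM Degrader (red), on a log axis, grouped by role and ordered within each role by the DMSO level. The points of the 3 arms lie close together for each gene, while the core genes in DMSO span 16.0-fold.

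Summed over the 47 genes, nascent transcription was slightly lower with both drugs than with DMSO. The sum was 2379 and 2437 CPM in the DMSO libraries, 2283 and 2301 CPM with GDC0068, and 2292 and 2297 CPM with Degrader. Every drug-treated library lay below both DMSO libraries, and the libraries of the 2 drugs overlapped. The mean difference from DMSO was -4.8% with GDC0068 and -4.7% with Degrader. By block, Degrader libraries averaged -4.17% for the core, -5.41% for the cap and -3.9% for the others, and GDC0068 libraries -4.92%, -4.98% and -4.24%. Both drugs were set against the same DMSO libraries, so these differences are not independent of each other.

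**Figure D2:**
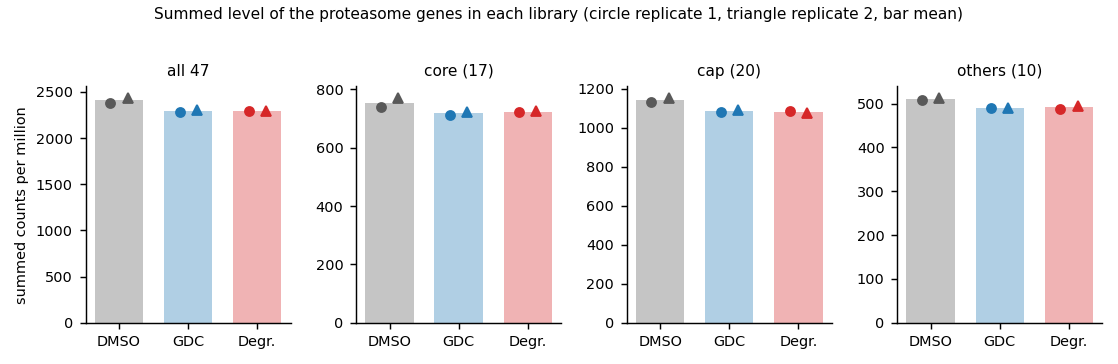
Summed CPM of all 47 genes and of the core, cap and other genes in each library, with bars for the mean of 2 libraries and axes from 0. For all 47 genes the DMSO libraries (2379 and 2437 CPM) lie above the 4 drug-treated libraries (2283 to 2301 CPM).

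With Degrader against DMSO, 6 of the 47 genes fell and 0 rose (edgeR quasi-likelihood test, Benjamini-Hochberg adjusted p under 0.05 over 19902 genes). They were the cap subunit genes PSMD1, PSMD2 and PSMD11, the activator PSME3 and the assembly chaperones PSMG3 and PSMG4. No core gene was called in this fit, and 3 of 17 fell with the replicate block (17.6%, against 30.7% of all genes called). The 6 calls are 12.8% of the 47, near the 15.3% called over all genes tested, of which 7.88% fell and 7.39% rose, so the number of calls did not set these genes apart. In direction they were lopsided: 37 of the 47 estimates (78.7%) were negative, against 50.3% over all genes. The median log2 fold change was -0.07 against -0.00 over all genes, and -0.06 in one experiment and -0.10 in the other. Both Degrader libraries lay below both DMSO libraries for 21 genes (44.7%, against 29.2% of all genes) and above them for 3 (6.38%, against 29.3%).

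The changes were small. The largest was -0.36 on the log2 scale, and all 47 95% intervals lay within 1.5-fold either way. With the experiment as a replicate block, 12 of the 47 were called, 11 lower and 1 higher, against 30.7% of all genes (15.7% lower, 15.1% higher). The count of 6 depended on the libraries: it was 0 without the first DMSO library, 1 without the second DMSO library, 2 without the first Degrader library and 1 without the second, and 6 without either GDC0068 library. Calls over all genes also fell when any 1 DMSO or Degrader library was left out. The fall in calls was thus not particular to the 47. DESeq2 called 2 of the 47, PSMG3 and PSMG4, against 2271 of the 19902 genes fitted. At an unadjusted p under 0.05, 11 of the 47 differed in edgeR. Genes below that unadjusted threshold were not counted over all genes, so such counts are not read as an excess.

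**Figure D3:**
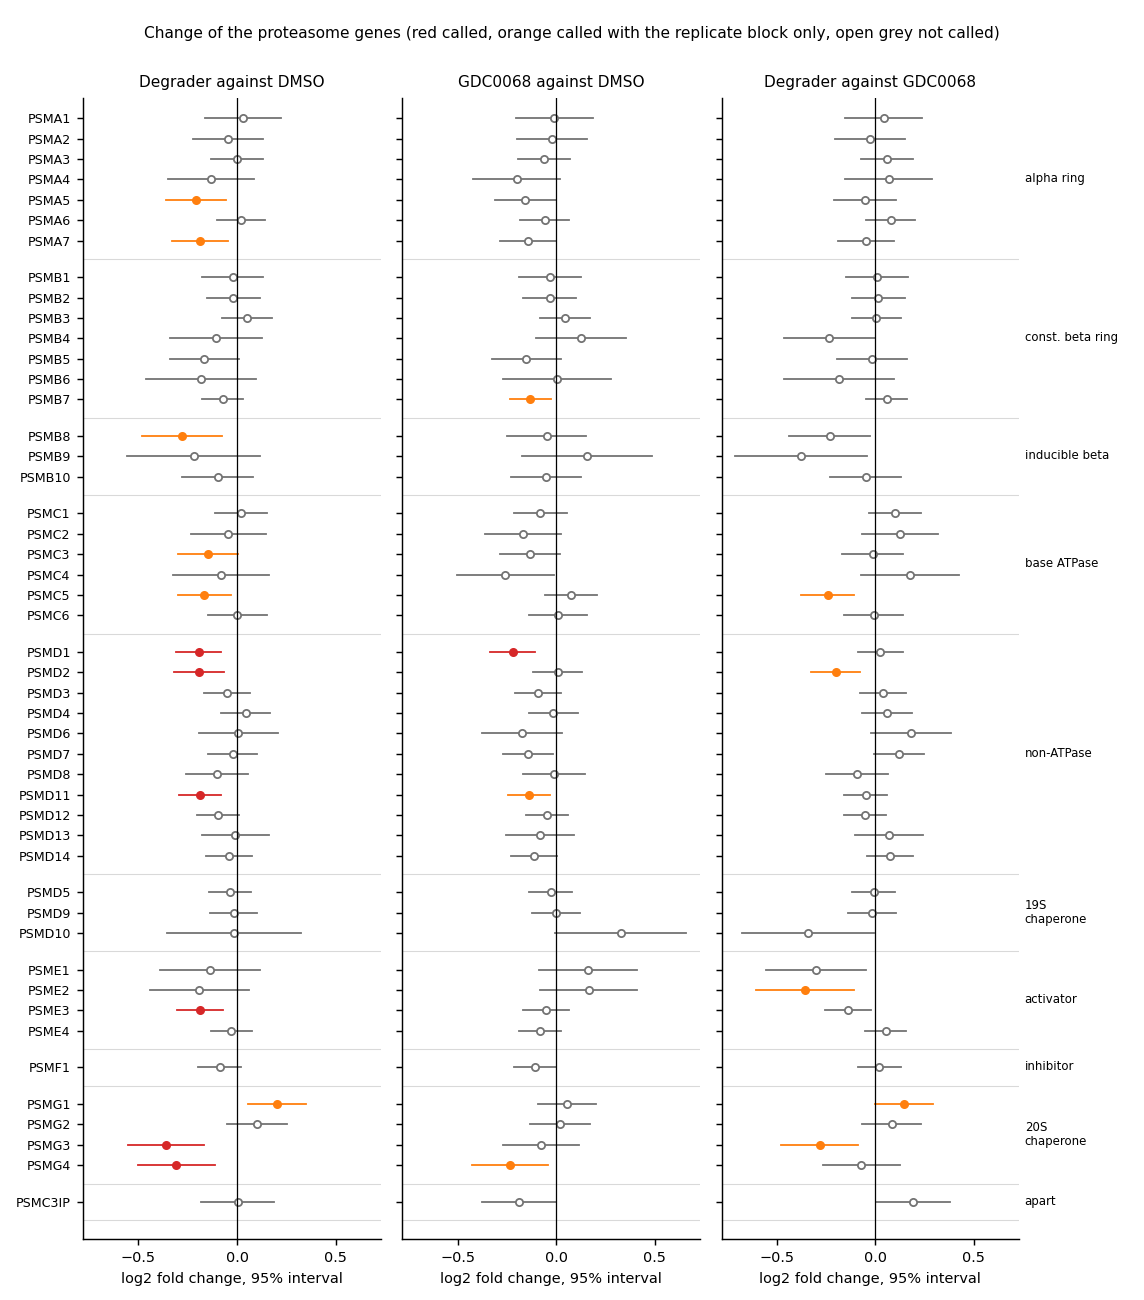
Log2 fold change with its 95% interval for each of the 47 genes in the 3 comparisons, grouped by role; red points were called, orange points were called with the replicate block only, and open points were not called. With Degrader against DMSO 6 points are red and 37 of 47 lie left of 0; between the drugs no point is red.

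Among the catalytic and structural core genes, 14 of 17 estimates were negative with Degrader (82.4%, against 50.3% of all genes), with a median of -0.10. Of the 17 genes, 0 were called, against 15.3% of all genes. In edgeR 3 had an unadjusted p under 0.05, and DESeq2 also called 0. With the block, 3 core genes fell. PSMA5, an alpha-ring subunit, was at 35.6 and 35.9 CPM in DMSO, 33.2 and 30.9 with GDC0068, and 31.6 and 30.2 with Degrader. The Degrader libraries were below both DMSO libraries, with a log2 fold change of -0.21 (SE 0.070; adjusted p = 0.0667, and 0.0141 with the block). PSMA7, another alpha subunit, was at 51.2 and 56.4 CPM in DMSO, 50.5 and 47.1 with GDC0068, and 47.1 in both Degrader libraries. Again Degrader and DMSO did not overlap, and the estimate was -0.19 (SE 0.065; adjusted p = 0.0700, and 0.00974 with the block). The remaining alpha genes ran from -0.13 for PSMA4 to 0.03 for PSMA1.

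Of the inducible catalytic genes, PSMB8 and PSMB9 had the lowest core estimates. PSMB8 was at 15.4 and 16.2 CPM in DMSO, 15.5 and 15.1 with GDC0068, and 13.1 and 13.0 with Degrader. Only the Degrader libraries stood apart, with a log2 fold change of -0.28 (SE 0.093; adjusted p = 0.0639, and 0.0204 with the block). PSMB9, the least transcribed core gene, was at 4.3 and 4.19 CPM in DMSO, 4.84 and 4.63 with GDC0068, and 3.48 and 3.81 with Degrader. Its Degrader values were the lowest and its GDC0068 values the highest, but at this depth the interval for Degrader against DMSO, -0.56 to 0.12, included 0 (adjusted p = 0.381). PSMB10 had the smallest estimate of the 3, -0.10 (adjusted p = 0.457). The constitutive catalytic genes PSMB5, PSMB6 and PSMB7 had estimates of -0.17, -0.18 and -0.07, with adjusted p of 0.190, 0.378 and 0.334. The highest beta-ring estimate was 0.05, for PSMB3.

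In the cap, 16 of 20 estimates were negative with Degrader (80%, against 50.3% of all genes), with a median of -0.04. Of the 20 genes, 3 fell (15%, against 15.3% of all genes called and 7.88% lower). All 3 are scaffold or lid subunits without ATPase activity. PSMD1, a large base subunit that forms part of the docking surface for ubiquitin receptors, lies on chromosome 2 (chr2:231056911-231172827, plus strand). It was at 94.1 and 99.8 CPM in DMSO, 81.7 and 84.6 with GDC0068, and 85.7 and 83.6 with Degrader. All drug-treated libraries were below both DMSO libraries. Without the block it was the only gene of the 47 called with both drugs, which share those controls, and with the block PSMD11 and PSMG4 were called with both as well. The PSMD1 change was -0.20 with Degrader (SE 0.052; adjusted p = 0.0278, and 5.04e-04 with the block) and -0.22 with GDC0068 (SE 0.052; adjusted p = 0.0427, and 3.49e-04 with the block). The Degrader call was lost on leaving out any 1 of the 4 libraries compared (adjusted p = 0.0579 to 0.162, change -0.24 to -0.15), and the GDC0068 call on leaving out any 1 of its 4 libraries (0.103 to 0.215). DESeq2 gave adjusted p of 0.0621 and 0.0647.

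PSMD2, the other large base scaffold (chr3:184299254-184309050, plus strand), followed another pattern. It was at 76.2 and 75.1 CPM in DMSO, 75.3 and 76.9 with GDC0068, and 69.3 and 63.1 with Degrader. DMSO and GDC0068 overlapped, and only Degrader was lower, by -0.19 against DMSO (SE 0.057; adjusted p = 0.0419, and 0.00165 with the block). Against GDC0068 it was lower by -0.20 (95% interval -0.33 to -0.08; adjusted p = 0.159, and 0.00455 with the block). PSMD11, a lid subunit (chr17:32444488-32481471, plus strand), was at 94.5 and 97.1 CPM in DMSO, 87.5 and 86.5 with GDC0068, and 85.2 and 83.0 with Degrader. Its libraries fell into 3 separate steps, DMSO highest and Degrader lowest. The change with Degrader was -0.19 (SE 0.049; adjusted p = 0.0246, and 5.70e-04 with the block), and an interval on the opposite strand overlaps the gene. DESeq2 called neither PSMD2 (adjusted p = 0.0929) nor PSMD11 (0.0641). Leaving out 1 of the 4 libraries compared ended the PSMD11 call each time (0.0723 to 0.154) and the PSMD2 call except without the first Degrader library (up to 0.300).

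The 6 ATPase genes that drive unfolding had a median of -0.06 with Degrader. Of the 6, 0 were called in edgeR (against 15.3% of all genes, with 1 unadjusted p under 0.05) or in DESeq2. With the block PSMC3 and PSMC5 fell. PSMC5 was at 47 and 49.2 CPM in DMSO, 52.6 and 48.8 with GDC0068, and 43.2 and 42.5 with Degrader. Degrader was below both other arms, by -0.17 against DMSO (SE 0.062; adjusted p = 0.0922, and 0.0219 with the block) and by -0.24 against GDC0068 (95% interval -0.38 to -0.11; adjusted p = 0.126, and 0.00499 with the block). PSMC3 was at 58.5 and 64.7 CPM in DMSO, 52.8 and 59.4 with GDC0068, and 54.7 and 56.5 with Degrader, an estimate of -0.15 with Degrader (adjusted p = 0.187, and 0.0218 with the block). The cap's own assembly chaperones, PSMD5, PSMD9 and PSMD10, lay between -0.04 and -0.01 with Degrader. The remaining non-ATPase genes ran from -0.10 for PSMD8 to 0.04 for PSMD4, the ubiquitin receptor.

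Of the activators, which cap the core in place of the ATPase-bearing cap, PSME3 fell with Degrader. PSME3, which forms the nuclear activator (chr17:42833418-42843760, plus strand), was at 67.4 and 65.6 CPM in DMSO, 65.1 and 63.2 with GDC0068, and 59.1 and 57.5 with Degrader. GDC0068 and DMSO lay close to each other without overlap, and both Degrader libraries were lower, by -0.19 against DMSO (SE 0.053; adjusted p = 0.0331, and 0.00182 with the block). That call was lost without any 1 of the 4 libraries (0.0809 to 0.186) and in DESeq2 (0.0964). PSME2, with the lowest estimate of the 4 activators, was at -0.19 and PSME1 at -0.14, with wider errors (SE 0.11 and 0.12; adjusted p = 0.297 and 0.468). PSME4 and the inhibitor PSMF1 had estimates of -0.03 and -0.09, with adjusted p of 0.736 and 0.258.

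The chaperones that assemble the core, PSMG1 to PSMG4, held both the lowest and the highest estimates of the 47. PSMG3, on chromosome 7 (chr7:1567351-1570032, minus strand), was at 37.0 and 37.8 CPM in DMSO, 38.6 and 32.5 with GDC0068, and 27.6 and 30.7 with Degrader. Both Degrader libraries were the lowest, while GDC0068 spanned the DMSO values. The change with Degrader was -0.36 (SE 0.088; adjusted p = 0.0192, and 4.28e-04 with the block). PSMG4, its partner in a dimer (chr6:3258947-3268049, plus strand), was at 34.6 and 30.2 CPM in DMSO, 28.5 and 26.7 with GDC0068, and 27.3 and 25.2 with Degrader. Both drugs lay below DMSO, with -0.31 for Degrader (SE 0.088; adjusted p = 0.0368, and 0.00124 with the block) and -0.24 for GDC0068 (SE 0.088; adjusted p = 0.162, and 0.0205 with the block). These 2 calls also held in DESeq2 (adjusted p = 0.0121 and 0.0436). The PSMG3 call was kept only without the second Degrader library among the 4 compared, and otherwise reached 0.122. The PSMG4 call was kept only without the second DMSO library and otherwise reached 0.304, at a change of -0.21 without the first DMSO library.

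PSMG1 and PSMG2, which form the other assembly dimer, had positive estimates with Degrader. PSMG1 was at 71.5 and 75.2 CPM in DMSO, 74.4 and 77.9 with GDC0068, and 78.3 and 90.2 with Degrader. Both Degrader libraries were the highest, although they differed from each other by more than the DMSO libraries did. The estimate was 0.20 (SE 0.067; adjusted p = 0.0667, and 8.96e-04 with the block), and it was called without the first Degrader library, at 0.30 (adjusted p = 0.0228). PSMG2 stood at 0.10 (adjusted p = 0.359). PSMC3IP, the recombination cofactor, was at 0.00 with Degrader (adjusted p = 0.989), from opposite log2 ratios of 0.18 and -0.17 in the 2 replicates. With GDC0068 it was at -0.19, with both libraries below DMSO (adjusted p = 0.252). MLX, which overlaps it on the opposite strand, fell by 0.22 on the log2 scale with Degrader (adjusted p = 0.0172). The MLX call was lost without any 1 of the 4 libraries, and its change ran from -0.27 to -0.19 with 1 library left out.

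**Figure D4:**
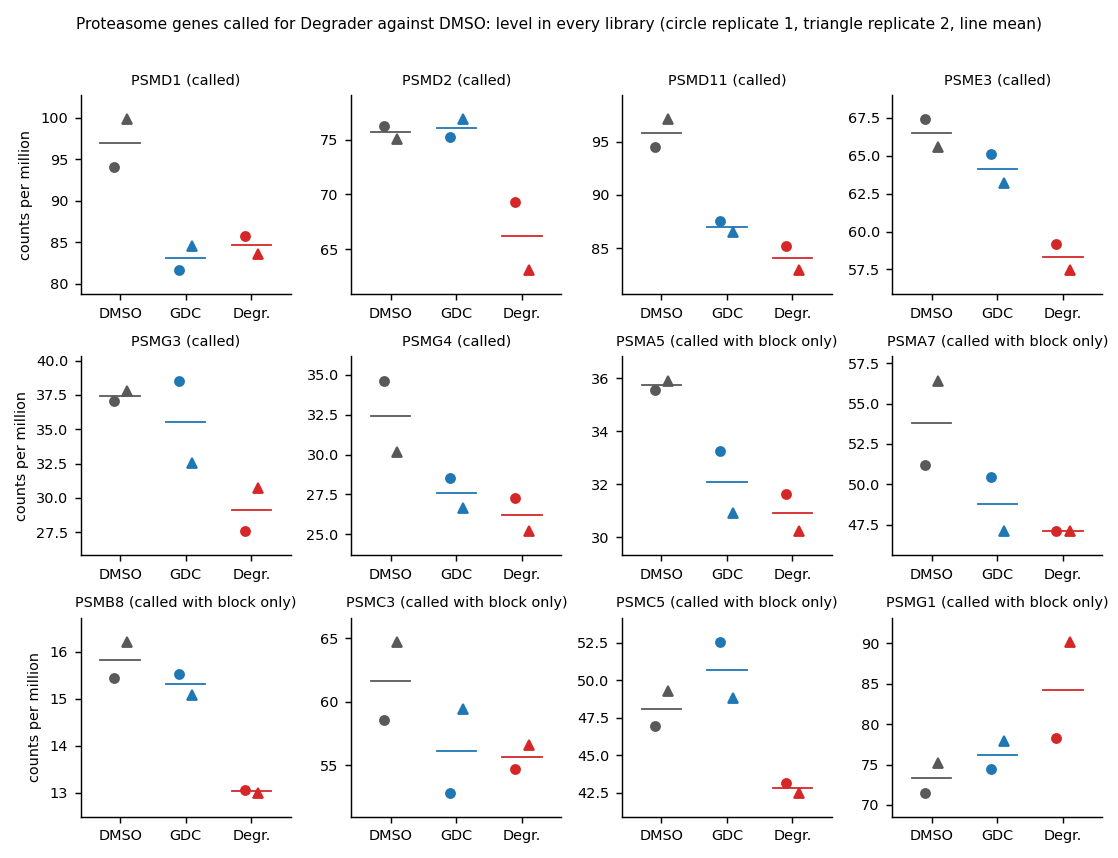
CPM in every library for the 6 genes called with Degrader against DMSO and the 6 called with the replicate block only. Circles are the first replicate, triangles the second and lines the mean of 2. Each axis has its own range and does not start at 0. In 11 panels the Degrader libraries lie below both DMSO libraries, and in the panel of PSMG1 they lie above.

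With GDC0068 against DMSO, 1 of the 47 genes, PSMD1, fell and 0 rose. That is 2.13%, against 3.58% of all genes tested (1.88% lower, 1.7% higher), again near the background. Of the 47 estimates, 35 were negative (74.5%, against 47.4% of all genes), with a median of -0.05 against 0.01 over all genes, and -0.05 and -0.10 in the 2 experiments. Both GDC0068 libraries lay below both DMSO libraries for 22 genes (46.8%, against 24% of all genes) and above them for 6 (12.8%, against 26.1%). With the replicate block 4 of the 47 fell, against 17.8% of all genes called (8.91% lower, 8.87% higher). At an unadjusted p under 0.05 in edgeR 8 of the 47 differed, again without a count over all genes. DESeq2 called 0, against 605 of the 19902 genes fitted. The PSMD1 call was lost without any 1 of the 6 libraries.

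The 3 further genes called with the block were PSMD11 (-0.14; adjusted p = 0.144, and 0.0153 with the block), PSMG4 and PSMB7. PSMB7, the constitutive trypsin-like subunit and the gene with the most counts, was at 169 and 172 CPM in DMSO, 155 and 156 with GDC0068, and 165 and 159 with Degrader. Both drugs lay below DMSO and GDC0068 was the lower of them, with an estimate of -0.13 (SE 0.047; adjusted p = 0.148, and 0.00909 with the block). By block, the median was -0.05 for the core, -0.08 for the cap and -0.06 for the others. The lowest estimate was -0.26, for the ATPase gene PSMC4 (adjusted p = 0.224), with 22.6 and 18.6 CPM in DMSO and 16.1 and 18.3 with GDC0068.

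At the other end, the highest estimates with GDC0068 were in PSMD10, PSME2, PSME1 and PSMB9, all genes with few counts. PSMD10, an assembly chaperone of the cap also known as the oncoprotein gankyrin, was at 4.58 and 5.40 CPM in DMSO, 5.98 and 6.47 with GDC0068, and 4.53 and 5.32 with Degrader. The GDC0068 libraries were the highest, by 0.33 (SE 0.15; adjusted p = 0.258), and the interval, -0.01 to 0.66, was the only one of the 47 that reached past 1.5-fold. The activators PSME1 and PSME2 and the inducible PSMB9 had estimates of 0.16, 0.17 and 0.16, with adjusted p of 0.466, 0.447 and 0.611.

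Between the drugs, 0 of the 47 genes were called without the block, against 0.266% of all genes (0.116% higher and 0.151% lower with Degrader). At an unadjusted p under 0.05 in edgeR 11 of the 47 differed, again without a count over all genes. DESeq2 called 0 of the 45 it gave an adjusted p, against 141 of the 19902 genes fitted. The median difference was -0.01 against -0.00 over all genes, and 24 of the 47 were negative. Degrader libraries lay above both GDC0068 libraries for 13 genes (27.7%, against 22.1% of all genes) and below them for 12 (25.5%, against 22.9%). For 44 of the 47 the 95% interval of the difference lay within 1.5-fold either way. The other 3, PSMB9, PSMD10 and PSME2, had intervals reaching to -0.71, -0.67 and -0.61, so differences beyond 1.5-fold lie within their intervals. With the block 5 of the 47 were called, against 10.4% of all genes (5.35% lower, 5.03% higher): PSMD2, PSMC5, PSMG3 and PSME2 were lower with Degrader and PSMG1 was higher.

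The largest differences between the drugs came from several roles, among them the activator genes PSME1 and PSME2, the inducible PSMB9 and the ATPase gene PSMC5 given above. PSME2, a subunit of the interferon-inducible activator, was at 11.7 and 10.9 CPM with GDC0068 and 8.63 and 8.96 with Degrader, with DMSO between them at 9.43 and 10.7. The drugs did not overlap, and the difference was -0.36 (95% interval -0.61 to -0.11; adjusted p = 0.198, and 0.0353 with the block). Its partner PSME1 was at 10.3 and 9.56 CPM with GDC0068 and 7.87 and 8.23 with Degrader, a difference of -0.30 (-0.55 to -0.05; adjusted p = 0.277). PSMB9 differed by -0.38 (-0.71 to -0.04; adjusted p = 0.299), PSMD10 by -0.34 (-0.67 to -0.01; adjusted p = 0.344) and PSMB8 by -0.23 (-0.44 to -0.03; adjusted p = 0.293). The difference was also -0.23 for the constitutive PSMB4 (-0.47 to -0.00; adjusted p = 0.353), and -0.05 for the inducible PSMB10 (adjusted p = 0.824). None of these 7 genes passed the threshold without the block. PSMG3 differed by -0.28 (-0.48 to -0.09; adjusted p = 0.191, and 0.0157 with the block). In the other direction, 23 of the 47 estimates were positive. The highest was 0.19, for PSMC3IP (0.00 to 0.38, adjusted p = 0.351, and 0.0825 with the block), whose libraries did not overlap between the drugs. The highest non-ATPase estimate was 0.18, and PSMC4 was also at 0.18 (-0.07 to 0.42, adjusted p = 0.506). PSMG1 differed by 0.14 (-0.00 to 0.29, adjusted p = 0.359, and 0.0327 with the block).

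Interval length went with the change across the 47 genes, and in opposite directions for the drugs. The Spearman correlation of length with the log2 fold change was 0.344 for Degrader against DMSO, -0.304 for GDC0068 against DMSO and 0.467 between the drugs. Over all 19902 genes it was 0.0952, -0.0762 and 0.209. These are correlations across genes of the same libraries, which are not independent replicates, and the first 2 share the DMSO libraries. The 8 genes of at most 5000 bp had a median of -0.17 with Degrader and 0.04 with GDC0068, and the 39 longer ones -0.04 and -0.08. Between the drugs the medians were -0.24 and 0.02. Over all 6086 genes of at most 5000 bp the medians were -0.02 with Degrader, 0.05 with GDC0068 and -0.07 between the drugs, so the GDC0068 value of the 8 was near that of other short genes. The length limit was chosen after the values were seen. Which part of a gene was counted is not given in the sources used here.

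The changes were also set beside the promoter letters. TGACNNNGC occurred within 250 bases before to 50 bases after the start in 12 of 41 promoters (29.3%), against 15.1% of 11152 promoters of genes in the table. In PSMD3, for example, it reads TGACTCGGC from -37 to -29, and in PSMD1 TGACTGAGC from 39 to 47, past the end of the stretch shown. The 12 genes with it had a median of -0.07 with Degrader and -0.01 with GDC0068, and the 29 without it -0.05 and -0.06. With Degrader 1 of the 12 and 4 of the 29 were called, against 15.3% of all genes. CCGGAAG occurred in 15 promoters (36.6%, against 19.5%), with a median of -0.02 with Degrader, against -0.12 for the 26 without it, and -0.08 against -0.03 with GDC0068, the opposite order. CCAAT occurred in 18 (43.9%, against 37.0%), with a median of -0.04, against -0.10 in the 23 without it, and -0.06 against -0.05 with GDC0068. The forkhead letters TGTTTAC occurred in 2, PSMB2 and PSMD5 (4.88%, against 2.28%), at -0.02 and -0.04 with Degrader, neither called. A match is a run of letters and not a bound site.

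Several of the genes start close to a neighbour on the opposite strand, and the pairs did not always move together. PSMG3 starts 110 bp from PSMG3-AS1, a noncoding gene transcribed the other way. PSMG3-AS1 was at 85.8 and 83.4 CPM in DMSO, 98.7 and 98.9 with GDC0068, and 98.3 and 101 with Degrader. All drug-treated libraries were above DMSO, and it rose by 0.24 with Degrader (adjusted p = 0.00798) and 0.22 with GDC0068 (adjusted p = 0.0329), whereas PSMG3 fell with Degrader. The Degrader call for PSMG3-AS1 was lost without the second library of either arm (up to 0.0966), and the GDC0068 call without any 1 of the 6 libraries (up to 0.161) and in DESeq2 (0.0603). PSMC5 starts 372 bp from FTSJ3, a ribosome biogenesis gene, which fell by 0.37 on the log2 scale with Degrader (adjusted p = 0.00570, and 0.0543 without the second DMSO library). PSMA7 starts 437 bp from SS18L1, which fell by 0.22 (adjusted p = 0.0166, up to 0.130 without 1 library, kept only without the second DMSO library among the 4 compared). AC138627.1, 108 bp from PSMD7, rose by 0.24 (adjusted p = 0.0129, up to 0.128 without 1 library, kept only without the first Degrader library among the 4 compared), while PSMD7 stood at -0.02.

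Over the 17 such pairs, both estimates were negative in 10, both positive in 1 and opposite in 6 with Degrader. With GDC0068 the counts were 3, 3 and 11. Head-to-head pairs were not counted over all genes, and 78.7% and 74.5% of the 47 estimates were negative with the respective drugs. Of the 17 neighbours, 4 were called with Degrader and 1 with GDC0068, against 15.3% and 3.58% of all genes. PSMB9 and TAP1, a peptide transporter gene 500 bp away that shares its interferon-responsive promoter, were at -0.22 and -0.01 with Degrader, neither called. These neighbours were singled out after their values were seen.

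**Figure D5:**
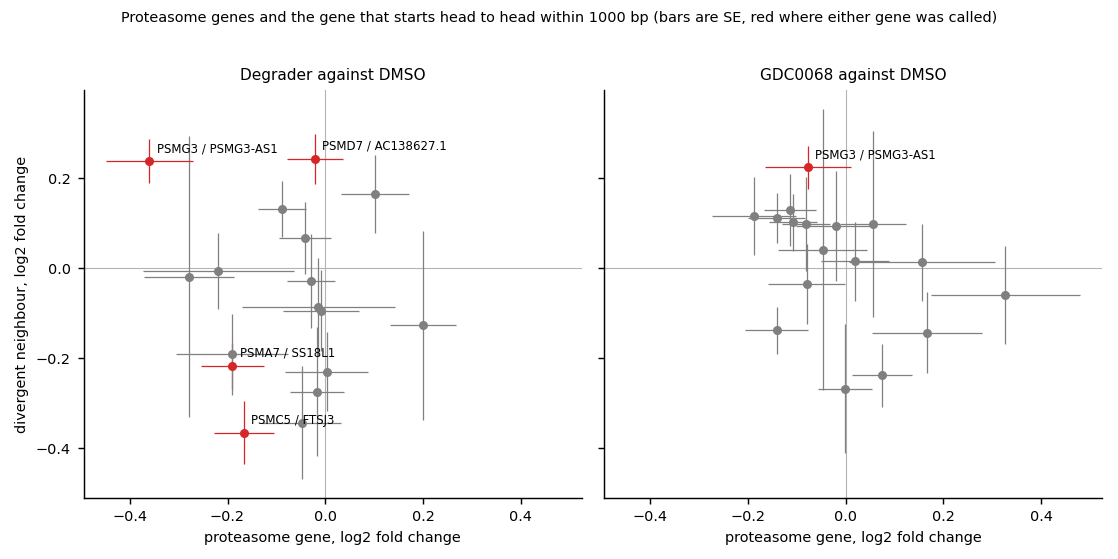
Log2 fold change of the 17 proteasome-gene rows with a head-to-head neighbour within 1000 bp (x axis) against that of the neighbour (y axis), for each drug against DMSO; bars are SE and red points have at least 1 gene called. PSMG3 and PSMG3-AS1 lie at -0.36 and 0.24 with Degrader, the pair farthest toward the upper left.

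The wider proteasome pathway was read from lists of genes without a PSM symbol. Of 7 further subunit and assembly genes, 1 fell with Degrader (14.3%, against 15.3% of all genes called). With GDC0068 0 fell (against 3.58% of all genes called), where edgeR gave 2 unadjusted p-values under 0.05 and DESeq2 also called 0. With the replicate block 2 of the 7, ADRM1 and ECPAS, were lower with each drug, at adjusted p of 4.29e-04 and 0.00238 for GDC0068. That is 28.6%, against 30.7% of all genes called with Degrader and 17.8% with GDC0068. Of the 7 estimates, 5 were negative with Degrader and 6 with GDC0068. ADRM1, the ubiquitin receptor that docks on the PSMD1 protein, was at 120 and 109 CPM in DMSO, 106 and 91.9 with GDC0068, and 90.9 and 88.3 with Degrader. Degrader was the lowest arm, and ADRM1 fell by 0.36 on the log2 scale (adjusted p = 0.00661, up to 0.0692 without 1 library, kept without the first Degrader or second DMSO library). ECPAS, a proteasome adaptor, was at -0.15 (adjusted p = 0.0521, and 9.85e-04 with the block). SEM1, a small lid subunit, and the chaperone POMP were at -0.05 and 0.06, neither called.

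Of 15 docked enzymes and shuttles, 10 had negative estimates with Degrader and 11 with GDC0068, with medians of -0.08 and -0.09. The estimates ran from -0.19 to 0.19 with Degrader and from -0.26 to 0.31 with GDC0068. MIDN and NPLOC4 fell with Degrader (13.3%, against 15.3% of all genes called) and UFD1 with GDC0068 (6.67%, against 3.58%). All 3 had negative estimates with both drugs: with GDC0068 MIDN was at -0.21 (adjusted p = 0.0531, and 2.06e-04 with the block) and NPLOC4 at -0.15 (0.131, and 0.00353 with the block), and with Degrader UFD1 was at -0.13 (0.151, and 0.0484 with the block). With the block 6 of the 15 were called with each drug (40%), against 30.7% and 17.8% of all genes. With Degrader all 6 were lower, and with GDC0068 5 were lower and 1 was higher. MIDN, which carries proteins to the proteasome without ubiquitin, was at 122 and 117 CPM in DMSO and 108 and 103 with Degrader, a fall of 0.18 on the log2 scale (adjusted p = 0.0366). NPLOC4 and UFD1 are the cofactors of the segregase VCP. They fell by 0.17 with Degrader (adjusted p = 0.0406) and by 0.26 with GDC0068 (adjusted p = 0.0361). Each of these 3 calls was lost without any 1 of the 4 libraries compared (up to 0.225, 0.251 and 0.189), and DESeq2 called neither MIDN (0.0764) nor UFD1 (0.0595).

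Of 4 ubiquitin and ubiquitin-activating genes, RPS27A fell with Degrader (25%, against 15.3% of all genes called). It encodes ubiquitin fused to a ribosomal protein, and near-identical copies elsewhere in the genome make its count less certain. RPS27A was at 30.8 and 31.5 CPM in DMSO, 29.9 and 28.4 with GDC0068, and 23.7 and 21.9 with Degrader. Degrader was the lowest arm, and the gene fell by 0.45 on the log2 scale (adjusted p = 0.00377), a call that held with any 1 library left out. The polyubiquitin gene UBB was not called.

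Of 8 genes that control proteasome transcription, MAFF rose with Degrader (12.5%, against 15.3% of all genes called). With GDC0068 0 were called, against 3.58% of all genes (edgeR, with 1 unadjusted p under 0.05, and DESeq2 also 0). MAFF, a small partner of NFE2L1 and NFE2L2, was at 13.7 CPM in both DMSO libraries, 16.2 and 15.3 with GDC0068, and 18.4 and 19 with Degrader. It rose by 0.45 (adjusted p = 0.00760, up to 0.0699 without 1 library, kept without the first Degrader or second DMSO library). NFE2L1, the main activator of proteasome genes, was at 74.2 and 78.3 CPM in DMSO, 78.3 and 76.0 with GDC0068, and 73.7 and 78.2 with Degrader. Its arms overlapped, with estimates of -0.00 with Degrader (adjusted p = 0.970) and 0.02 with GDC0068 (adjusted p = 0.897). With the block, 5 of the 8 were called with Degrader, against 30.7% of all genes: MAFF, MAFG, BACH1 and NFE2L2 were higher and MAFK was lower. With GDC0068 BACH1 was called higher with the block (adjusted p = 0.00534), 12.5% of the list against 17.8% of all genes.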

How the data were processed

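PRO-seq was measured in T47D cells after 5 h in 3 arms of 2 libraries each. The authors deposited raw counts per gene interval, 1 column per library. The submitters' processing notes list cutadapt 1.14, Bowtie 1.2.2, SAMtools 1.3.1, HISAT2 2.2.1 and limma, with the builds dm3, hg38 and GRCh38 and without their roles. The counted part of a gene, the use of strand, duplicate removal and any spike-in scaling are not given in the sources used here. A change common to all genes is removed by scaling, and without stated strand use overlapping genes cannot be told apart. Coordinates are those of the table, and 37 of 41 RefSeq GRCh38.p14 starts lay within 100 bp of them.

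Counts were fitted with edgeR 4.0.16 in R 4.3.3 (TMM, default filter with a minimum count of 10, quasi-likelihood, all 6 libraries, arm as the only term), tested on simulated data. This left 19902 genes, 431 fewer than the table, and calls were made at a Benjamini-Hochberg adjusted p under 0.05. Calls are from this fit unless the block or another fit is named. Intervals are 95% and use the fit's pooled spread. DESeq2 1.42.0 and limma 3.58.1 (voom) were alternatives, with other filters, scalings and libraries left out. The series has 2 independent experiments, and libraries are labelled by replicate number. The replicate block assumes that libraries with the same number share an experiment. Deviations of same-numbered libraries from their arm means correlated only weakly over the 3 pairs of arms. The values were 0.177, 0.22 and 0.204 for all genes tested. Over the 47 alone they were -0.0445, 0.282 and -0.0191, where 2 of the 3 are near 0. For the 47 genes the blocked value is printed where it changes a call. Named genes were all those called in either fit, the extremes of each role, the catalytic pairs, and for each companion list those called or else the one with the smallest p. Counting errors cover counting only. The genes and lists were chosen with earlier results of these data known. Some genes of the companion lists are not reported here.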

Additional observations from a re-analysis of the deposited data

How the results depend on the processing

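No estimate of a named gene called without the block changed sign under any alternative. The replicate block raised the genes called with Degrader, with GDC0068 and between the drugs to 6114, 3540 and 2065, from 3039, 712 and 53, and the proteasome genes called to 12, 4 and 5. DESeq2 called 2 and 0 proteasome genes with the 2 drugs and 141 genes between them. Robust estimation called 116 genes between the drugs. The fit of only the 4 libraries compared called 0 proteasome genes with GDC0068 and 23 genes between the drugs.

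With 1 library left out, the lone library of an arm being assumed to vary like the others, all-gene calls were 931 to 3217 with Degrader, 37 to 546 with GDC0068 and 5 to 63 between the drugs. Proteasome-gene calls were 0 to 6 with Degrader and 0 with GDC0068 in every case, and the median change with Degrader was -0.107 to -0.0576. The cause of these shifts was not tested, and each of these fits also had fewer libraries. With 2 libraries an arm and standard errors of 0.05 to 0.16, small changes in weakly counted genes were not detectable.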

Other observations

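Antigen processing genes share interferon control with the inducible proteasome subunits. Of 10 listed, 1 (10%, against 15.3% of all genes) was called with Degrader, TAPBP, the peptide-loading factor tapasin, which rose. With GDC0068 0 were called, against 3.58% of all genes (edgeR, with 1 unadjusted p under 0.05, and DESeq2 also 0). TAPBP was at 127 and 132 CPM in DMSO, 135 and 147 with GDC0068, and 153 and 154 with Degrader, a rise of 0.24 on the log2 scale (edgeR adjusted p = 0.0109, up to 0.111 without 1 library, kept only without the second DMSO library among the 4 compared). TAP2, a peptide transporter subunit in the same cluster as PSMB8 and PSMB9, was at -0.33 (adjusted p = 0.0600, and 0.0117 with the replicate block). With the block 3 of the 10 were called with Degrader, 1 higher and 2 lower, and 1 higher with GDC0068, against 30.7% and 17.8% of all genes.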
